A study of Mus musculus with 4 samples.

Results

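Toll-like receptors and their adaptors were described in the lymphoma cells of λ-MYC mice, as a set of 10 genes chosen by name from the 34866 genes measured. They were the receptors Tlr1, Tlr2, Tlr4, Tlr6, Tlr7 and Tlr9, the receptor-like protein Cd180 with its partner Ly86, the adaptor Myd88 and the transport protein Unc93b1. RNA was sequenced from B220+ IgM+ splenocytes of 2 moribund λ-MYC Tom+/ki mice, each carrying an IgM+ Tom+ tumor (tumors #1 and #2). Both mice carried the λ-MYC transgene, which expresses MYC under immunoglobulin λ regulatory sequences, a knocked-in Cre and a tdTomato reporter at Rosa26, so that Tom+ cells were those that had recombined the reporter and Tom- cells those that had not. Tom+ and Tom- cells were sorted from each spleen, which gave 4 libraries and 1 library of each kind per tumor. No mouse without the transgene was sequenced here, each tumor was 1 mouse, and the ages of these mice are not given in the sources used here.

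Toll-like receptors (TLRs) recognize molecules of microbes through a leucine-rich ectodomain and signal through a cytoplasmic TIR domain. TLR2 pairs with TLR1 or TLR6 to bind lipopeptides at the cell surface and TLR4 binds lipopolysaccharide, whereas TLR7 and TLR9 read RNA and DNA in endosomes and reach them with UNC93B1. All of these receptors signal through MYD88, which recruits IRAK kinases and leads to activation of NF-κB. B cells also carry CD180 (RP105), a TLR-like protein without a TIR domain that is held at the surface by MD-1, the product of Ly86.

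Levels are in TPM (transcripts per 1000000), which is corrected for transcript length and sums to the same total in each library, so depth is unknown and values carry no counting interval. Differences are on the log2(TPM + 1) scale, which understates the change of genes with low TPM. They were tested with limma, with Tom status and tumor as terms, over the 11339 genes with at least 1 TPM in at least 2 libraries, and adjusted by the Benjamini-Hochberg method. All 10 genes passed this filter, but Tlr7 did so through the libraries of tumor #2 alone and so had to differ between the tumors. Tlr2, Tlr4, Tlr6 and Tlr9 reached 1 TPM in 3 libraries, both of tumor #2 and 1 of tumor #1. They would not have passed on tumor #1 alone, so their selection also leaned on tumor #2. The fit leaves 1 residual degree of freedom per gene. For a single value, an exact permutation test could not go below p = 0.333 for 2 against 2 libraries or p = 0.5 for 2 pairs, so none is given.

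The libraries were checked against cell type markers. The B cell markers were above 1 TPM in each library, with Cd79a at 147 TPM (Tom-) and 120 TPM (Tom+) in tumor #1, compared with 346 and 306 TPM in tumor #2, and Ighm at 1255 TPM or more. The 8 myeloid markers summed to 1.43 and 0.753 TPM in tumor #1, and to 10.9 TPM in Tom- cells but 1.15 TPM in Tom+ cells of tumor #2, with Cd14 at 0 throughout and S100a8 and S100a9 at 0 in the Tom+ library of tumor #2. The 7 dendritic cell markers summed to at most 2.79 TPM, with Itgax and Clec9a at 0 in each library. The 6 T and NK cell markers reached 8.27 TPM in Tom- cells of tumor #2, where Cd3d alone had 7.77 TPM. The 4 plasma cell markers summed to 231 TPM in Tom+ cells of tumor #2 against 13.0 to 20.1 TPM elsewhere. Jchain alone gave 209 TPM of that sum, with Xbp1 at 21.2 TPM, Prdm1 at 0.570 TPM and Sdc1 at 0.428 TPM. Sdc1 was higher in tumor #1, at 1.95 (Tom-) and 1.78 TPM (Tom+). The 3 erythroid markers summed to 19.2 (Tom-) and 16.3 TPM (Tom+) in tumor #1 against 0.0963 and 0.967 TPM in tumor #2. Only Hbb-bs among them split by tumor, at 18.8 and 16.1 TPM against 0 and 0.699 TPM. Hba-a1 was at 0 in each library and Alas2 overlapped between the tumors. The shares of TPM also split by tumor, at 6.61% and 8.67% in tumor #1 against 14.4% and 15.6% in tumor #2 for mitochondrial genes, and at 31.3% and 30.3% against 25.4% and 23.4% for genes annotated as pseudogenes. The part of these transcripts in the differences between the tumors was not tested.

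Tlr1 and Tlr6 are neighbors on the minus strand of chromosome 5, with 18468 bases between them, and parts of their coding sequences are identical. Of the 60-base windows of annotated transcripts, which is the read length used, 400 of 3322 in Tlr1 (12.0%) and 400 of 3692 in Tlr6 (10.8%) were present in both genes. Tlr1 shared 13.2% of its windows with any other gene on the same strand, Tlr6 shared windows with Tlr1 alone, and Tlr2, Tlr4, Tlr7, Tlr9, Cd180, Ly86, Myd88 and Unc93b1 shared 0.0%. The longest identical run spans 229 bases of coding sequence, at chr5:64925537-64925765 in Tlr1 and chr5:64953828-64954056 in Tlr6 (GRCm38). It is printed here because reads that lie within it match both genes, and it reads 5′ to 3′ along the transcripts as follows.
Tlr1 and Tlr6, shared run: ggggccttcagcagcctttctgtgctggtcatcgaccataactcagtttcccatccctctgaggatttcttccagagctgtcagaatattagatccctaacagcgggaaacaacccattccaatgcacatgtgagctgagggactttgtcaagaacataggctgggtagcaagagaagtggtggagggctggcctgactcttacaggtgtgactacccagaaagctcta
The division of such reads was made by the authors' quantification, so the levels of Tlr1 and Tlr6 are uncertain. Tlr1 had 26.5 and 17.8 times the TPM of Tlr6 in the Tom- and Tom+ libraries of tumor #1, compared with 12.3 and 11.2 times in tumor #2. A misplaced read thus weighs more on Tlr6, and the part of Tlr1 reads in the level of Tlr6 was not tested. Myd88 overlaps the antisense gene Acaa1a in 6.63% of its windows and Cd180 overlaps the antisense gene Mast4 in 2.81%. Whether strand was used in the quantification is not stated in the sources used here. Acaa1a was at 10.6 and 15.5 TPM in tumor #1, compared with 14.4 and 18.7 TPM in tumor #2, and Mast4 was at 0.581 and 0.773 TPM in tumor #1, compared with 4.21 and 2.77 TPM in tumor #2 (Tom- and Tom+ cells).

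By mean TPM over the 4 libraries the order was Unc93b1 (44.1 TPM), Ly86 (41.7 TPM), Tlr1 (39.9 TPM), Cd180 (15.9 TPM), Myd88 (8.66 TPM), Tlr9 (3.36 TPM), Tlr6 (3.07 TPM), Tlr2 (2.51 TPM), Tlr4 (1.83 TPM) and Tlr7 (1.78 TPM). The first 5 were at 7.42 TPM or more in each library and the last 5 at 6.16 TPM or less, so the ranges of Myd88 and Tlr9, neighbors in this order, did not overlap. The ranges of all other neighbors in the order overlapped. Among them Cd180 was above Myd88 in each of the 4 libraries, and each of the other pairs was in this order in 2 or 3 libraries. The order also differed by tumor. Ly86 was the most abundant of the 10 genes in both libraries of tumor #1, with Cd180, Tlr1 and Unc93b1 between 17.4 and 21.0 TPM, whereas Unc93b1 and Tlr1 exceeded Ly86 in both libraries of tumor #2.

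**Figure D1:**
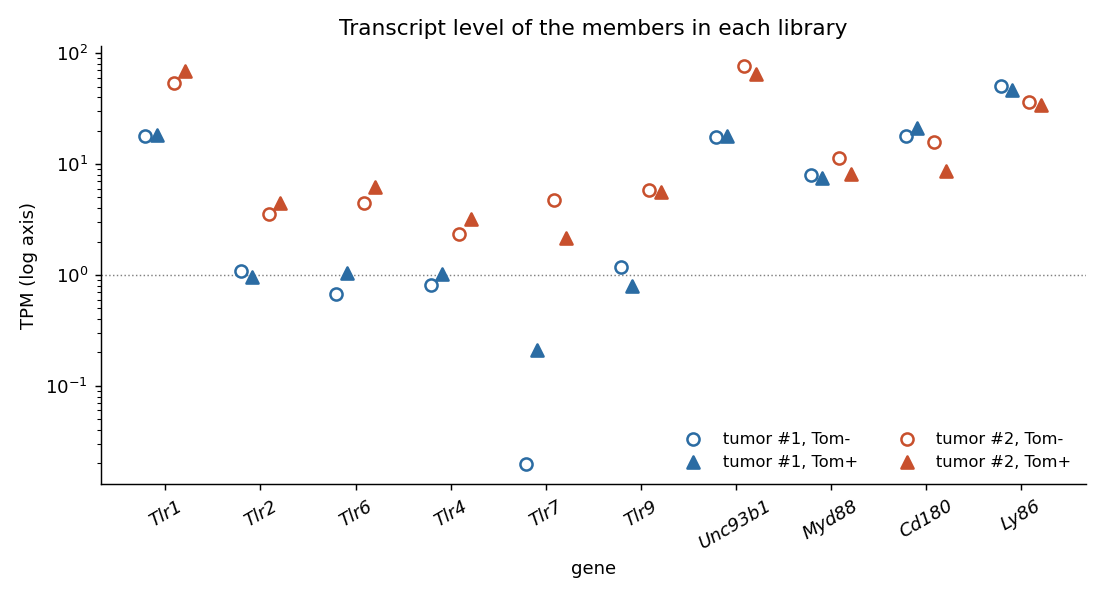
TPM of the 10 genes (x axis) on a log axis (y axis), 1 point per library, with open circles for Tom- and filled triangles for Tom+ cells, blue for tumor #1 and orange for tumor #2, and a dotted line at 1 TPM. The 6 TLRs and Unc93b1 were higher in both libraries of tumor #2, with Tlr7 the lowest point of the plot at 0.0195 TPM, and Cd180 and Ly86 were lower.

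The first comparison was between the tumors. In tumor #2 the lipopeptide receptor subunit Tlr1 and the chaperone Unc93b1 were 3.05 to 4.41 times as high as in tumor #1 in either sort, and these 2 of the 10 genes passed the test at an adjusted p of 0.05. Of all genes tested, 4.33% passed (491 genes), and 3.37% passed with a higher level in tumor #2 (382 genes). After trimmed-mean scaling, which centers the libraries on genes that differ little, 981 genes passed, 457 of them higher in tumor #2. The other 5 TLRs were also higher in both libraries of tumor #2 but did not pass after adjustment, with adjusted p-values between 0.0551 and 0.0934. Cd180 and Ly86 were lower in both libraries of tumor #2, without passing the test. Each tumor is 1 mouse and its libraries are sorts of the same spleen. These p-values therefore measure how evenly the tumor difference was repeated in the 2 sorts, with limma's moderation over all genes. They say nothing of mice in general, and in bulk RNA fewer expressing cells and less RNA per cell cannot be told apart.

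Among the surface receptors, Tlr1 (ENSMUSG00000044827, chromosome 5, 64924679 to 64933563) was at 17.8 TPM (Tom-) and 18.4 TPM (Tom+) in tumor #1, against 54.3 and 69.1 TPM in tumor #2. The sorts of tumor #1 were nearly equal and both were far below the lower sort of tumor #2. Tlr1 was 3.05-fold higher in tumor #2 among Tom- cells and 3.76-fold higher among Tom+ cells, a log2 difference of 1.71 (SE 0.17, adjusted p = 0.0480). Across 10 alternative settings the adjusted p ranged from 0.0176 to 0.119 and was below 0.05 in 5, and the difference was between 1.37 and 1.81.

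Tlr2 (ENSMUSG00000027995, chromosome 3, 83836272 to 83841767), the common partner of TLR1 and TLR6, was at 1.09 TPM (Tom-) and 0.957 TPM (Tom+) in tumor #1, against 3.55 and 4.43 TPM in tumor #2. The tumors did not overlap, and the log2 difference was 1.30 (SE 0.25, adjusted p = 0.0724). Tlr6 (ENSMUSG00000051498, chromosome 5, 64952031 to 64960097) was at 0.671 and 1.03 TPM in tumor #1, compared with 4.42 and 6.16 TPM in tumor #2. This was 6.58-fold in Tom- and 5.96-fold in Tom+ cells, with a log2 difference of 1.76 (SE 0.23, adjusted p = 0.0551), and tumor #1 was near or below 1 TPM. The part of sequence shared with the more abundant Tlr1 in this difference was not tested.

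The lipopolysaccharide receptor gene Tlr4 (ENSMUSG00000039005, chromosome 4, 66827584 to 66930284) was at 0.805 and 1.03 TPM in tumor #1, compared with 2.32 and 3.18 TPM in tumor #2. It was low in all 4 libraries without overlap between the tumors (log2 difference 0.96, SE 0.24, adjusted p = 0.0934). Its co-receptor genes were Ly96 (MD-2), at 1.76 to 2.45 TPM with overlapping tumors, and Cd14, listed at 0 in each library.

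The ratios of TPM between partners were then compared. Tlr1 had 16.3 and 19.2 times the TPM of Tlr2 in the Tom- and Tom+ libraries of tumor #1, compared with 15.3 and 15.6 times in tumor #2, a narrow range beside the change of either gene. The ratio of Tlr6 to Tlr2 was 0.615 and 1.08 in tumor #1 and 1.25 and 1.39 in tumor #2. Summed TPM of Tlr1, Tlr2, Tlr4 and Tlr6 was 20.4 and 21.4 in tumor #1 and 64.5 and 82.9 in tumor #2, and Tlr1 made up 83.4% to 87.4% of that sum in the 4 libraries.

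Among the endosomal receptors, Tlr9 (ENSMUSG00000045322, chromosome 9, 106222598 to 106226883), the receptor for DNA with unmethylated CpG, was at 1.19 TPM (Tom-) and 0.799 TPM (Tom+) in tumor #1, against 5.83 and 5.61 TPM in tumor #2. It was 4.90-fold higher in tumor #2 among Tom- cells and 7.02-fold among Tom+ cells. The log2 difference was 1.76 (SE 0.23, adjusted p = 0.0557).

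Tlr7 (ENSMUSG00000044583, chromosome X, 167304929 to 167330558), the receptor for single-stranded RNA, was at 0.0195 and 0.211 TPM in tumor #1, compared with 4.74 and 2.16 TPM in tumor #2. On the log2(TPM + 1) scale it had the widest range of the 10 genes over the libraries, and among the TLRs it had the largest gap between the sorts of tumor #2. The log2 difference was 1.94 (SE 0.39, adjusted p = 0.0766), and no fold is given against values near 0 at unknown depth. Tlr7 and Tlr9 together summed to 1.21 and 1.01 TPM in tumor #1 and to 10.6 and 7.77 TPM in tumor #2.

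Unc93b1 (ENSMUSG00000036908, chromosome 19, 3935186 to 3949340), the transmembrane protein that escorts TLR7, TLR9 and other receptors from the endoplasmic reticulum, was at 17.4 TPM (Tom-) and 17.8 TPM (Tom+) in tumor #1, against 76.9 and 64.2 TPM in tumor #2. The sorts of each tumor lay close together and the tumors were well apart. The differences were 4.41-fold in Tom- and 3.62-fold in Tom+ cells, or 1.94 on the log2 scale (SE 0.16, adjusted p = 0.0464). Over 10 alternatives the adjusted p ranged from 0.0134 to 0.119 and was below 0.05 in 5. Unc93b1 had 11.5 to 22.3 times the TPM of Tlr9 in the 4 libraries.

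The adaptor Myd88 (ENSMUSG00000032508, chromosome 9, 119335934 to 119341411) was at 7.89 and 7.42 TPM in tumor #1, compared with 11.3 and 8.06 TPM in tumor #2. Both libraries of tumor #2 were higher, but the Tom+ library by little (log2 difference 0.29, SE 0.21, adjusted p = 0.394). The sign was not stable to scaling, with -0.023 after trimmed-mean scaling and -0.064 after quantile normalization. Myd88 had the tumor difference closest to 0 of the 10 genes, and the ratio of Tlr1 to Myd88 transcripts went from 2.25 and 2.48 in tumor #1 to 4.81 and 8.58 in tumor #2.

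Cd180 (ENSMUSG00000021624, chromosome 13, 102693558 to 102739629) was at 18.0 TPM (Tom-) and 21.0 TPM (Tom+) in tumor #1, against 15.9 and 8.68 TPM in tumor #2. The 3 other libraries lay within 15.9 to 21.0 TPM, and Tom+ cells of tumor #2 stood below them. The log2 difference between the tumors was -0.67 (SE 0.33, adjusted p = 0.239), made up of -0.17 in Tom- and -1.18 in Tom+ cells.

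Ly86 (ENSMUSG00000021423, chromosome 13, 37345208 to 37419036) was at 50.4 and 46.1 TPM in tumor #1, compared with 36.2 and 34.1 TPM in tumor #2. It was lower in tumor #2 by similar amounts in both sorts (0.718 and 0.740 times the level of tumor #1, log2 difference -0.45, SE 0.14, adjusted p = 0.131). Ly86 had 2.80 and 2.20 times the TPM of Cd180 in the Tom- and Tom+ libraries of tumor #1, compared with 2.28 and 3.93 times in tumor #2. The ratio of Tlr1 to Cd180 transcripts was 0.991 and 0.877 in tumor #1 and 3.42 and 7.96 in tumor #2.

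**Figure D2:**
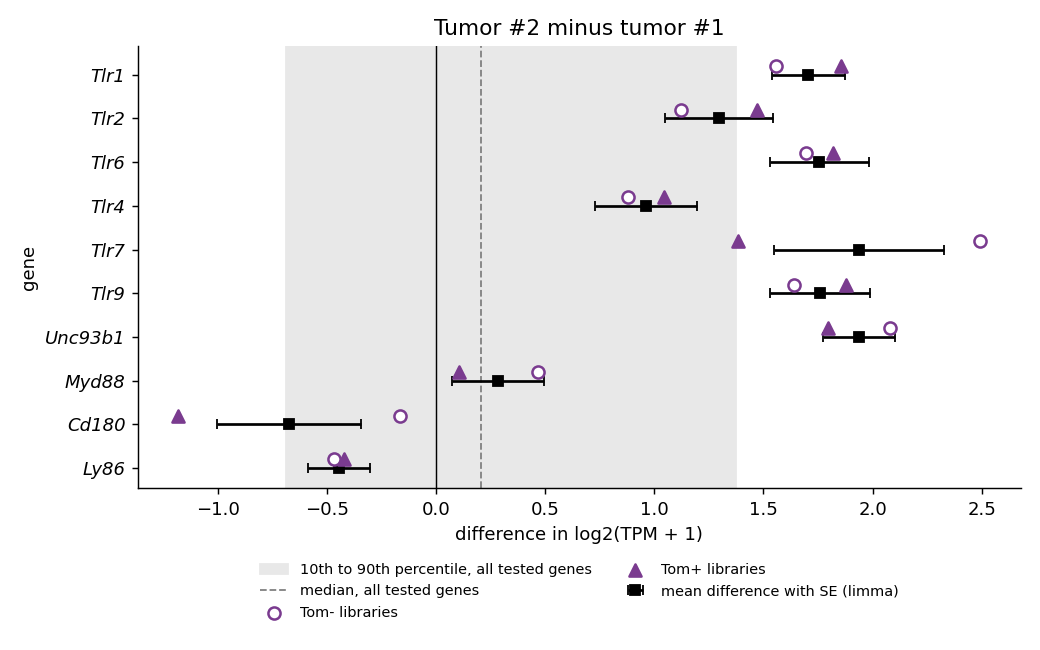
Difference between tumor #2 and tumor #1 in log2(TPM + 1) (x axis) for each gene (y axis), with circles for Tom- libraries, triangles for Tom+ libraries and squares for the mean with limma's SE, over a gray band from the 10th to the 90th percentile of all tested genes (-0.69 to 1.37) and a dashed line at their median (0.20). The means of Tlr1, Tlr6, Tlr7, Tlr9 and Unc93b1 lie to the right of the band. Those of Tlr2, Tlr4 and Myd88 lie within it above 0, and those of Cd180 and Ly86 lie within it below 0.

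Most tested genes did not overlap between the tumors in one direction or the other, so counts are given beside the share of all tested genes. Both libraries of tumor #2 were above both of tumor #1 for 8 of the 10 genes, against 44.8% of all tested genes, and below them for 2, against 23.7%. After trimmed-mean scaling these counts were 7 (30.2%) and 2 (39.3%), the difference being Myd88, and after quantile normalization 7 (29.8%) and 2 (37.4%). With a mean difference of at least 1 on the log2 scale in addition, 6 of the 10 genes (Tlr1, Tlr2, Tlr6, Tlr7, Tlr9 and Unc93b1) were higher in tumor #2 against 16.2% of all tested genes, and 0 were lower against 5.1%. At an unadjusted p below 0.05, reached by 36.7% of all tested genes, 7 of the 10 genes were higher in tumor #2 (25.7% of all tested genes) and 1, Ly86, was lower (11.0%). Without Tlr7, whose direction the filter fixed, 7 of 9 genes were higher without overlap, 5 of 9 by at least 1 in addition, and 6 of 9 at an unadjusted p below 0.05. Of these 9, Tlr2, Tlr4, Tlr6 and Tlr9 also needed tumor #2 to pass the filter, so leaving out Tlr7 does not free the counts from it. These counts without Tlr7 were added after the values were seen. Tlr1 and Tlr6, which share sequence, are counted as separate genes throughout.

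The median difference of the 10 genes was 1.50, and 1.30 without Tlr7, beside 0.20 over all tested genes. It was 0.29 over Tlr1, Cd180, Ly86, Myd88 and Unc93b1, the genes averaging 5 TPM or more. In Tom- libraries alone 6 of the 10 genes were higher in tumor #2 by at least 1 on the log2 scale (18.6% of tested genes), and in Tom+ libraries alone 7 were (18.3%), or 5 and 6 of 9 without Tlr7. In Tom+ cells of tumor #2 the markers summed to 1.15 TPM for myeloid, 2.79 TPM for dendritic and 3.93 TPM for T and NK cells. The plasma cell markers summed to 231 TPM, of which Jchain gave 209 TPM. The part of these transcripts in the differences between the tumors was not examined. The scaling of the libraries set the level of all genes, whose median difference was 0.20 with TPM as deposited, -0.097 after trimmed-mean scaling, -0.078 after quantile normalization and 0.31 after rescaling over nuclear protein-coding genes. Relative to the deposited median, Tlr1 was higher by 1.50, Tlr2 by 1.09, Tlr4 by 0.76, Tlr6 by 1.55, Tlr9 by 1.56 and Unc93b1 by 1.73, and Cd180 and Ly86 stood at -0.88 and -0.65.

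The B cell markers and the sum of the marginal zone markers were also higher in tumor #2. Relative to tumor #1, the levels in Tom- and Tom+ cells of tumor #2 were 1.56-fold and 1.41-fold for Ptprc, 2.35-fold and 2.55-fold for Cd79a, and 7.98-fold and 10.2-fold for Ms4a1, which encodes CD20. Marginal zone B cells are a subset with strong responses to TLR ligands. Their 4 markers summed to 6.66 and 6.25 TPM in tumor #1 and to 17.7 and 18.7 TPM in tumor #2, with S1pr3 at or near 0. The part of both marker groups in the result was not tested.

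The second comparison, of Tom+ with Tom- cells of the same tumor, was the one the study was designed for, and asked whether cells that had recombined the reporter differ in their transcripts from those that had not. For this gene set it gave no difference that passed the test. Of the 10 genes 0 had an adjusted p below 0.05 (0.0% of all genes tested, with a smallest adjusted p of 0.936 from limma) and 0 had an unadjusted p below 0.05 (530 genes, 4.67% of all tested). The study itself reported genes that differed between Tom+ and Tom- cells, and its methods name a paired test of counts, not run here. With 1 residual degree of freedom the fit can miss differences, so the lack of calls does not show equal levels. Tlr1, Tlr4 and Tlr6 were higher in Tom+ cells of both tumors, 3 of the 10 genes against 21.6% of all tested genes. Tlr9, Ly86 and Myd88 were lower in both, 3 of 10 against 29.5%, but with rescaling over nuclear protein-coding genes Tlr9 and Ly86 had 0.041 and 0.017 in tumor #2. The remaining 4 of 10 had opposite signs in the tumors, against 47.3%. The mean differences ranged from -0.31 to 0.34 on the log2 scale, with a median of -0.11 beside -0.033 over all tested genes.

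The surface receptors had mean differences above 0, none of which passed the test. Tlr6 had the highest mean of the 10 genes, with 0.28 in tumor #1 and 0.40 in tumor #2 (mean 0.34, SE 0.23, adjusted p = 0.936). Tlr4 followed with 0.17 and 0.33 (mean 0.25, SE 0.24, adjusted p = 0.936), at levels of 3.18 TPM or less. Tlr1 had 0.045 and 0.34 (mean 0.19, SE 0.17, adjusted p = 0.936), so that its difference lay mostly in tumor #2. Tlr2 had -0.096 and 0.26 (mean 0.080, SE 0.25, adjusted p = 0.987). These SEs rest on the 2 tumors as replicates.

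The endosomal receptors, Unc93b1, Myd88 and the Cd180 pair had mean differences below 0, none of which passed the test. Tlr9 had -0.28 in tumor #1 and -0.048 in tumor #2 (mean -0.17, SE 0.23, adjusted p = 0.949), and Unc93b1 had 0.027 and -0.26 (mean -0.11, SE 0.16, adjusted p = 0.952). Myd88 had -0.078 and -0.44 (mean -0.26, SE 0.21, adjusted p = 0.936). Tlr7 and Cd180 were the most divided, with 0.25 and -0.86 for Tlr7 (mean -0.31, SE 0.39, adjusted p = 0.948) and 0.21 and -0.80 for Cd180 (mean -0.30, SE 0.33, adjusted p = 0.941). In TPM, Tlr7 went from 4.74 to 2.16 and Cd180 from 15.9 to 8.68 between Tom- and Tom+ cells of tumor #2. The sign of the Tlr7 mean was not stable, with 0.14 at a pseudocount of 0.1. Ly86 was the most even of the 10 genes, with -0.13 and -0.082 (mean -0.10, SE 0.14, adjusted p = 0.949). In tumor #2 the Tom- library also held more myeloid and T cell marker transcripts and the Tom+ library more Jchain (1.24 and 209 TPM), and their part in these values was not tested.

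**Figure D3:**
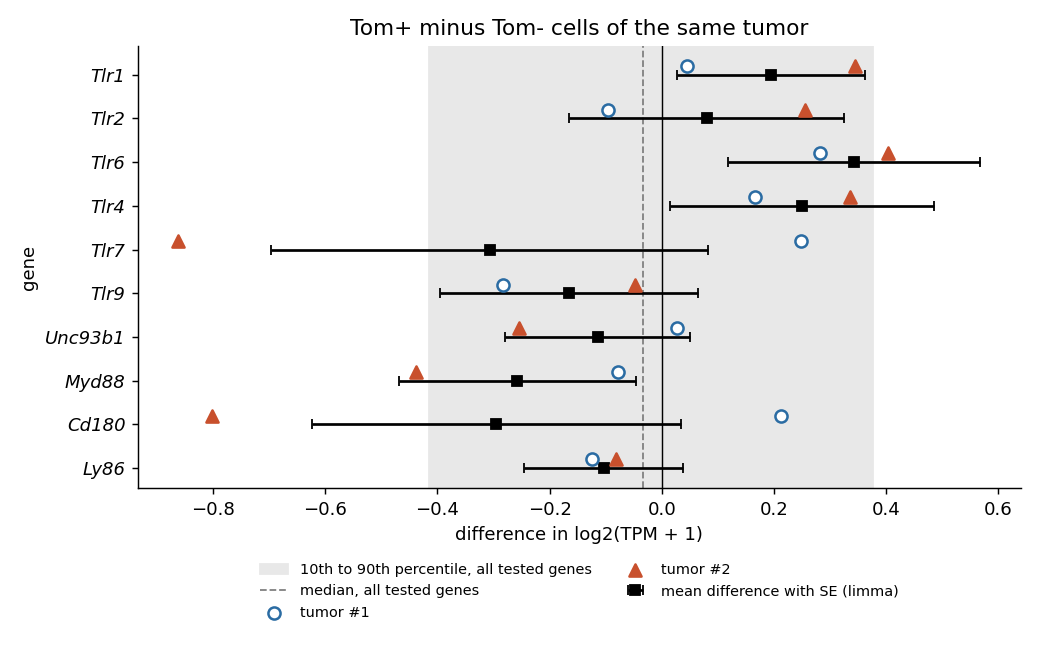
Difference between Tom+ and Tom- cells of the same tumor in log2(TPM + 1) (x axis) for each gene (y axis), with circles for tumor #1, triangles for tumor #2 and squares for the mean with limma's SE, over a gray band from the 10th to the 90th percentile of all tested genes (-0.41 to 0.38) and a dashed line at their median (-0.033). The means of the 10 genes lie inside the band, between -0.31 and 0.34, and the triangles of Tlr7 and Cd180 lie far to the left at -0.86 and -0.80.

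The other genes of the pathway were taken from lists of 62 genes, of which 61 were found in the table and 47 were tested. For Tom+ against Tom- cells, 0 of the 47 passed the test and 0 had an unadjusted p below 0.05 (4.67% of all tested genes). Of the 47, 7 (14.9%) were higher in both tumors, against 21.6% of all tested genes, and 16 (34.0%) were lower in both, against 29.5%, with a median of -0.040. Between the tumors 2 of the 47 (4.26%), Slc15a4 and Nfkbia, were higher in tumor #2 at an adjusted p of 0.05, which is near the 3.37% of all tested genes, and 0 were lower (0.961%). Both libraries of tumor #2 were above those of tumor #1 for 30 of the 47 (44.8% of all tested genes) and below them for 4 (23.7%), for 23 and 11 after trimmed-mean scaling (30.2% and 39.3%), and for 20 and 11 after quantile normalization (29.8% and 37.4%). The counts of the single lists below stand beside these same shares, and their values after scaling were added after the data were seen. Irak2 and Tnfaip3 passed the filter through tumor #2 alone and Ctsl through tumor #1 alone, so their directions were fixed, and without them the deposited values gave 28 higher and 3 lower of 44. Those 44 still hold Ikbke, Irf7, Nfkbiz and Tnf, which reached 1 TPM in only 1 library of tumor #1 and needed tumor #2 to pass. The median difference of the 47 was 0.46, which is 0.26 above that of all tested genes.

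Of the 6 other TLRs, 0 reached the limit for testing. Tlr5, the flagellin receptor, and Tlr11 and Tlr13 were listed at 0 in each library, and Tlr3, Tlr8 and Tlr12 did not exceed 0.255 TPM, so that the 6 receptors named above were the ones with a level of at least 1 TPM in 2 or more libraries. Of the 3 co-receptors, Cd36, a scavenger receptor that assists TLR2 and TLR6, was at 1.28 TPM (Tom-) and 0.699 TPM (Tom+) in tumor #1, against 4.74 and 0.620 TPM in tumor #2, highest in the library with the highest myeloid marker sum. The part of those transcripts in its level was not tested.

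The 4 tested adaptors other than Myd88 had a median tumor difference of -0.21, with 0 higher and 1 lower in tumor #2 without overlap (0 and 3 after trimmed-mean scaling). Tirap, which bridges TLR2 and TLR4 to MYD88, was at 11.9 and 7.83 TPM in tumor #1, compared with 8.21 and 5.94 TPM in tumor #2, and Pik3ap1 (BCAP), which links TLRs to PI3K, was at 10.7, 8.40, 10.4 and 7.60 TPM in the same order. Both had lower values in Tom+ cells of each tumor (Tirap -0.54 and -0.41, Pik3ap1 -0.32 and -0.40), neither with an adjusted p below 0.936.

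Of the 17 kinases and ligases next to the receptors, 12 were higher in tumor #2 without overlap and 1, the ubiquitin-conjugating enzyme gene Ube2n, was lower, with a median of 0.44 and 0 past the test. After trimmed-mean scaling 8 were higher and 3 lower, and after quantile normalization 7 and 3. By the naming rule, Tbk1, a kinase of interferon induction, was at 40.0 and 22.4 TPM in tumor #1, compared with 35.1 and 33.0 TPM in tumor #2, and its relative Ikbke was at 0.624 and 1.27 TPM and at 3.31 and 4.83 TPM. Irak2, named after its values were seen, had the largest tumor difference of these 17 genes, at 0.785 and 0.628 TPM in tumor #1, compared with 6.60 and 9.56 TPM in tumor #2 (log2 difference 2.39, SE 0.28, adjusted p = 0.0524). Irak2 is 1 of the genes that had to differ, since tumor #1 was below 1 TPM in both sorts.

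The 6 transcription factor genes had a median tumor difference of 1.02, and 5 of them were higher in tumor #2 without overlap (44.8% of all tested genes), or 4 after quantile normalization (29.8%). Rel, which encodes the NF-κB subunit c-Rel, was at 4.02 and 3.85 TPM in tumor #1, compared with 10.1 and 9.86 TPM in tumor #2. Of the 8 tested genes for receptor chaperones, proteases and endolysosomal factors, Slc15a4, a lysosomal transporter needed for TLR7 and TLR9 responses in B cells and dendritic cells, was at 65.2 and 95.1 TPM in tumor #1, compared with 317 and 312 TPM in tumor #2 (log2 difference 1.98, SE 0.20, adjusted p = 0.0480, from 0.0149 to 0.119 over 10 alternatives and below 0.05 in 5). In this list 4 genes were higher (Cnpy3, Slc15a4, Ctss and Lgmn) and 2 lower (Ctsl and Ap3b1) in tumor #2 without overlap, of which Ctsl had to be lower by the filter. The protease gene Ctsl was at 2.68 and 1.84 TPM in tumor #1, compared with 0.688 and 0.192 TPM in tumor #2, and Ap3b1, an adaptor subunit of endosomal sorting, was at 31.6, 29.2, 24.6 and 12.8 TPM in the same order.

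Of the 5 negative regulators 4 were tested, and these 4 were higher in tumor #2 without overlap (44.8% of all tested genes), with a median of 0.61. After trimmed-mean scaling or quantile normalization 2 were higher and 1 was lower. Tollip, a binding partner of IRAK1, differed by 0.070, less than the median of all tested genes. The deubiquitinase gene Cyld was at 12.5 and 11.3 TPM in tumor #1, compared with 18.9 and 18.2 TPM in tumor #2. Tnfaip3 (A20), named after its values were seen, was at 0.077 and 0.103 TPM in tumor #1, compared with 3.93 and 3.32 TPM in tumor #2 (log2 difference 2.08, SE 0.24, adjusted p = 0.0525), and passed the filter through tumor #2 alone.

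Of the 11 genes induced by TLR ligands 6 were tested, with a median tumor difference of 1.14, 5 higher and 0 lower in tumor #2 without overlap (4 and 0 after trimmed-mean scaling, 3 and 0 after quantile normalization). Nfkbia, which encodes the NF-κB inhibitor IκBα, was at 5.73 and 7.20 TPM in tumor #1, compared with 19.4 and 29.8 TPM in tumor #2 (log2 difference 1.76, SE 0.19, adjusted p = 0.0497, from 0.0206 to 0.124 over 10 alternatives and below 0.05 in 5), and was higher in Tom+ cells by 0.29 and 0.59 (adjusted p = 0.936). Nfkbiz was at 0.465 and 1.44 TPM in tumor #1, compared with 2.34 and 3.10 TPM in tumor #2. The cytokine genes Il6, Il10 and Ccl4 were listed at 0 in each library.

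**Figure D4:**
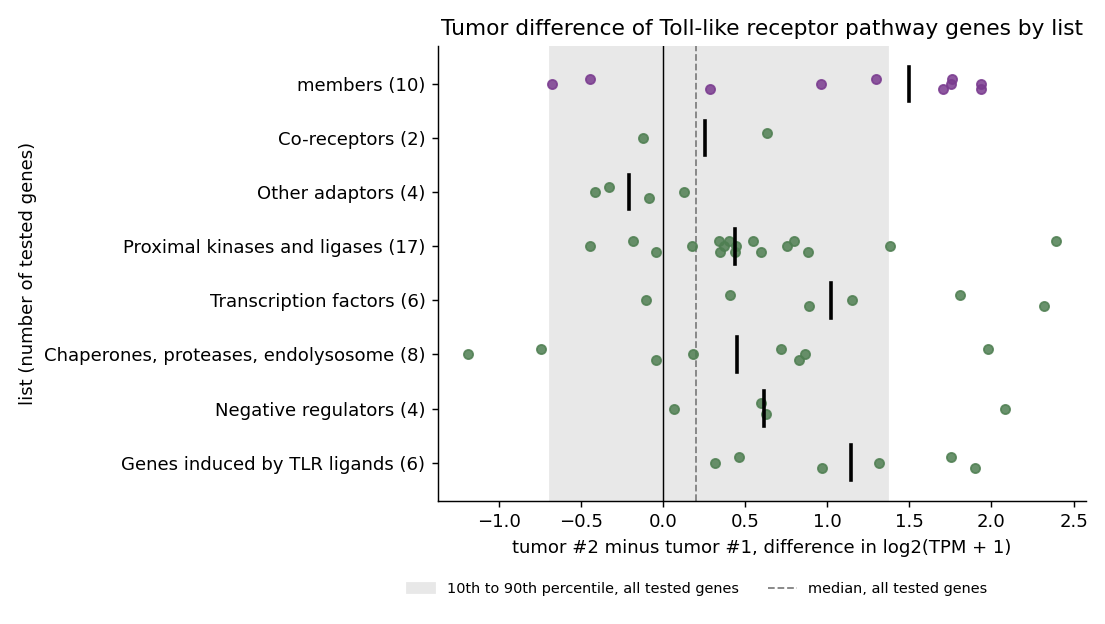
Difference between tumor #2 and tumor #1 in log2(TPM + 1) (x axis) for the 10 genes (purple) and for the tested genes of each pathway list (green), 1 point per gene, with black bars at the medians, a gray band from the 10th to the 90th percentile of all tested genes and a dashed line at their median. The bar of the 10 genes is at 1.50, those of the transcription factors and of the genes induced by TLR ligands at 1.02 and 1.14, and that of the other adaptors at -0.21.

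Similarity of profiles was measured as the Euclidean distance between log2(TPM + 1) values centered over the 4 libraries, given as a description, since 4 libraries of 2 tumors leave many genes alike. Within the set the closest pair was Tlr1 and Tlr6 (distance 0.18), the genes that share sequence, followed by Tlr9 and Unc93b1 (0.32), Tlr1 and Tlr9 (0.37) and Tlr2 and Tlr4 (0.39), whereas Cd180 and Ly86 were 0.61 apart. Among 10059 other protein-coding genes tested, the nearest was Mthfsl for Tlr7 (0.12), Prl8a1 for Tlr6 (0.053) and Smr3a for Unc93b1 (0.038), the last of which was listed at 0 in tumor #1. Within a distance of 0.5 there were 71 genes for Tlr7 (0.706%), 253 for Tlr6 (2.52%) and 235 for Unc93b1 (2.34%).

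Promoter sequences from RefSeq (GRCm38.p6) covered 7 of the 10 genes, and the bases before the start of the annotated gene are printed where most of a window lay before it. This held for Tlr1, Tlr6 and Tlr9, which were higher in tumor #2, and for Cd180, which was lower. The windows of Tlr2, Ly86 and Myd88 lay mostly or wholly within the annotated gene and are not printed. They are written 5′ to 3′ on the strand of the gene, and capitals mark matches, on either strand, to the E-box bound by MYC (CACGTG), the PU.1 core (GAGGAA), the octamer (ATTTGCAT), an NF-κB site (GGG, any pair of bases, then TTTCC) and the TATA box (TATAAA).
Tlr1, chr5:64933564-64933808, minus strand: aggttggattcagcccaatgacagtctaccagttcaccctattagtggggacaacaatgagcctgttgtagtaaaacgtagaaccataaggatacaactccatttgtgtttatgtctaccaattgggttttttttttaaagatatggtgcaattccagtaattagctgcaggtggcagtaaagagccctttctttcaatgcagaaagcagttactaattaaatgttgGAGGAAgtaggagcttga
Tlr6, chr5:64960098-64960298, minus strand: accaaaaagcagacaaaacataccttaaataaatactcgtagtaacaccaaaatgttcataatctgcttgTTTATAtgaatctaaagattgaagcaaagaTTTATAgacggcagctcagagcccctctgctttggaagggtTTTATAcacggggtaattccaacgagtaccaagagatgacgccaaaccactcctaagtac
Tlr9, chr9:106222348-106222597, plus strand: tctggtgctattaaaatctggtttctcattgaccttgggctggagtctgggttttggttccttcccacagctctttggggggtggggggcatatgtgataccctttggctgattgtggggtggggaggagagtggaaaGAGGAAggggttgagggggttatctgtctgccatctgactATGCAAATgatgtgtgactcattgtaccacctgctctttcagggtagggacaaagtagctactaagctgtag
Cd180, chr13:102693308-102693557, plus strand: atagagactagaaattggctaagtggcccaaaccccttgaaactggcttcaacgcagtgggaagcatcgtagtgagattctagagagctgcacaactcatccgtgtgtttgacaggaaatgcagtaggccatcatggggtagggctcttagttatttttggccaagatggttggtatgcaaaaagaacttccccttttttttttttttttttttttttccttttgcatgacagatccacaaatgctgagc
Counted from the RefSeq start, the PU.1 core lay at -23 in Tlr1 and at -112 in Tlr9, and Tlr9 held an octamer on the opposite strand at -72. In Tlr6 the capitals mark the TATA box on the opposite strand, at -180, -150 and -109, and 0 of these motifs were found in the 250 bases of Cd180. None of these windows held the E-box, which was found at -195 in a further promoter of Tlr1. Over 32851 promoters of 250 bases, the E-box was present in 6.02%, the PU.1 core in 23.3%, the octamer in 1.60%, the NF-κB site in 1.41% and the TATA box in 12.4%. The matches are a description of these windows and no measure of binding.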

How the data were processed

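B220+ IgM+ Tom+ and Tom- splenocytes of 2 tumor-bearing λ-MYC Tom+/ki mice were analyzed, 1 library of each per tumor. Per the labels and the study's methods, the authors made FastQ files with CASAVA 1.8, trimmed 60-base single reads (Cutadapt), estimated abundance with Salmon 1.9 from the GRCm38 transcriptome and deposited TPM per gene. How transcripts were summed, and whether strand was used, is not given in the sources used here. TPM keeps no depth, so precision from counting is unknown.

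Of 34866 identifiers, 34582 matched GENCODE M21. Log2(TPM + 1) values of genes with at least 1 TPM in at least 2 libraries were fitted with limma 3.58.1 in R 4.3.3 (terms Tom status and tumor, variance trend, two-sided, Benjamini-Hochberg, threshold 0.05, prior df 2.21). The fit was tried on simulated data, where recovery of set differences was required only at a spread well below that of these data. The authors' paired edgeR test needs counts and was not run. The sorts of each tumor share a mouse and were paired (across 11339 genes, which are not replicates, r = 0.626 and rho = 0.669 for their deviations). Tables and plots used Python 3.11.15, pandas 2.3.3, numpy 2.4.6 and matplotlib 3.10.9.

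The genes described were the 10 listed, every pathway gene with an adjusted p below 0.05, and in each pathway list the 2 genes with the largest Tom difference of the same sign in both tumors. For likeness, the nearest gene was named for the 3 genes with the widest range on the log2(TPM + 1) scale. The genes, lists and markers were chosen with earlier results of these data known. Alternatives were no filter or a minimum mean of 5 TPM, pseudocounts of 0.1 and 0.5, trimmed-mean, quantile and nuclear protein-coding scaling, no variance trend, a robust prior, no tumor or no Tom term, and single tumors or sorts. The driver of the Cre and 1 of the markers are not reported here.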

Additional observations from a re-analysis of the deposited data

Results flagged for a closer look

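Of the 10 genes, 4 had opposite signs between Tom+ and Tom- cells in the tumors, which was also the case for 47.3% of all tested genes. With 1 pair of libraries per tumor the difference between the tumors was not tested. Tlr2 had a log2 difference of -0.096 in tumor #1 and 0.26 in tumor #2. For Tlr7 the values were 0.25 and -0.86, and for Cd180 they were 0.21 and -0.80. Unc93b1 had 0.027 and -0.26.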

How the results depend on the processing

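For Tom+ against Tom- cells, 0 of the 10 genes and 0 genes in all passed the adjusted threshold under any of the 10 alternative fits. The fit without the replicate block gave 0 genes and 140 at an unadjusted p below 0.05 (530 with it), with a smallest adjusted p of 1.000. The median of the 10 genes, -0.11, was -0.018 with a pseudocount of 0.1 and between -0.065 (tumor #2 alone) and 0.036 (tumor #1 alone), so tumor #1 alone gave the opposite sign. Tlr7 turned to 0.14 with a pseudocount of 0.1. Between the tumors, 491 genes and 2 of the 10 passed. Those counts were 1 and 0 with a pseudocount of 0.1, 1 and 0 without a filter, 34 and 0 at a mean TPM of at least 5, 1 and 0 after quantile normalization, and 275 and 0 without the variance trend. They were 981 and 2 after trimmed-mean scaling, 2283 and 7 over nuclear protein-coding genes, 2231 and 6 without the Tom term, 526 and 2 with a pseudocount of 0.5 and 481 and 2 with a robust prior. The calls of Tlr1 and Unc93b1 thus depended on the setting. The median tumor difference, 1.50, was 1.81 and 1.64 with pseudocounts of 0.1 and 0.5, 0.29 over genes averaging 5 TPM or more, 1.22 after trimmed-mean scaling, 1.06 after quantile normalization, 1.71 over nuclear protein-coding genes, 1.34 in Tom- and 1.43 in Tom+ libraries alone. The mean TPM limit left out the 5 lowest genes, and the other causes were not tested. Myd88 turned to -0.023 after trimmed-mean scaling and -0.064 after quantile normalization, and the other 9 genes kept the sign of their tumor difference under these fits. Each tumor was 1 mouse, and the unknown depth limits what can be said of values near 1 TPM.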
